A study of Mus musculus with 4 samples.

Results

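The Wnt ligands examined here are 9 secreted signalling proteins, encoded by Wnt3, Wnt3a, Wnt4, Wnt5a, Wnt5b, Wnt6, Wnt8a, Wnt9a and Wnt11. They were chosen by name and found by matching the Ensembl identifiers of the count table to mouse gene symbols, which placed all 9 among the 37620 genes counted. The 9 genes were also all among the 15462 genes that the authors kept after removing genes of low expression. The mouse genome holds 10 further Wnt ligand genes in the same table, and 7 of these were kept. Wnt3a was the one member with few counts, that is under 50 in its highest library once the counts of the F/A Cripto KO library are halved.

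The study followed the passage of mouse embryonic stem cells (ESCs) into epiblast stem cells (EpiSCs), and asked what the loss of Cripto does to it. Cripto is a co-receptor of the growth factor Nodal and is encoded by Tdgf1. R1 ESCs of the 129/Sv strain, either wild type (WT) or Cripto KO, were kept in medium with serum and LIF (serum/LIF) or plated sparsely for 6 days in N2B27 medium with Activin A at 20 ng per ml and basic FGF (F/A). Each of the 4 conditions is represented by 1 paired-end RNA library. Serum/LIF keeps naive ESCs, F/A gives primed EpiSCs from WT cells, and the 2 Cripto KO libraries share the knockout in both cultures. The study reported that Cripto KO cells in F/A had lower EpiSC markers, uneven colonies and more Cdx2-positive cells. It concluded that their passage into EpiSCs was impaired, so Cripto KO F/A names a culture and not a primed state. The study used 2 Cripto KO clones, and the labels do not say which was sequenced, so each condition is 1 culture of 1 clone or line.

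Wnt proteins are lipid-bearing glycoproteins that act over short distances. The acyltransferase Porcn attaches a palmitoleate chain to a conserved serine, the carrier Wls takes the protein to the cell surface, and the secreted enzyme Notum can take the lipid off again. At the receiving cell a Wnt binds a Frizzled receptor together with Lrp5 or Lrp6, which stabilises beta-catenin and switches on targets such as Axin2 and Lef1, or it works through Ror, Ryk and Ptk7 on cell polarity and movement. In the early mouse embryo Wnt3 is needed for the primitive streak, Wnt3a and Wnt8a are made in and near the streak, and Wnt5a and Wnt11 are known for guiding cell movement during gastrulation.

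The coding bases around the serine that carries the lipid were set side by side for these ligands. In the coding transcripts of NCBIM37 (GENCODE M1) each of the 9 members had exactly 1 match to the protein motif that surrounds this serine. The motif reads histidine, glycine, any residue, serine, glycine, any residue, cysteine. The 27 coding bases around it are shown 5′ to 3′ for 8 members, with the serine codon in capitals.
Wnt3: tgccacgggttgTCCggcagctgcgag
Wnt3a: tgccacgggctaTCTggcagctgtgaa
Wnt4: tgtcacggggtgTCGggctcctgcgag
Wnt5a: tgtcatggagtgTCTggctcctgtagc
Wnt5b: tgtcacggagtcTCCgggtcctgcagc
Wnt6: tgccatgggcttTCGggttcctgcgct
Wnt9a: tgccatggtgtgTCTggctcctgcacc
Wnt11: tgccatggggtgTCTggctcctgctcc
The serine was codon 212 of Wnt3, 209 of Wnt3a, 212 of Wnt4, 244 of Wnt5a, 236 of Wnt5b, 227 of Wnt6, 221 of Wnt9a and 215 of Wnt11. Of the 27 bases, 14 were the same in all 8 members. Pairs of members shared from 15 bases, Wnt3a with Wnt5b, to 25 bases, Wnt9a with Wnt11. The windows were found by the motif, so many of these shared bases, in the codons that it names, were fixed in advance. Over their whole coding transcripts no pair of mouse Wnt genes shared any stretch of 50 bases.

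The promoters are shown for the member with the largest genotype ratio in F/A among those with enough counts, Wnt6, and for the pair with less RNA in Cripto KO whose intervals exclude 1, Wnt3 and Wnt11. The sequences are those of RefSeq on GRCm38.p6, from 250 bases before to 50 bases after an annotated start. Of the 9 members 7 are covered here, with 10 promoters in all, and Wnt5a and Wnt8a are not. Capitals mark the motifs searched on both strands, which were for TCF/LEF CTTTGAA or else CTTTGAT or else CTTTGTA or else CTTTGTT, the FOXH1 letters AATNCACA and the SMAD1/5 letters GGCGCC. These motifs do not overlap one another in the promoters shown.
Wnt3 (chr11:103773925-103774224, plus strand): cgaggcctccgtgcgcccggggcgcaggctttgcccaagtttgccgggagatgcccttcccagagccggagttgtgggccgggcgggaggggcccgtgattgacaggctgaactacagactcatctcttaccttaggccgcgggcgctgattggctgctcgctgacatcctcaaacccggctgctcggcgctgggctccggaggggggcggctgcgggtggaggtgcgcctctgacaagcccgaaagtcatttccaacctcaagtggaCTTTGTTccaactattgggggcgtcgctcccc
Wnt6 (chr1:74771642-74771941, plus strand): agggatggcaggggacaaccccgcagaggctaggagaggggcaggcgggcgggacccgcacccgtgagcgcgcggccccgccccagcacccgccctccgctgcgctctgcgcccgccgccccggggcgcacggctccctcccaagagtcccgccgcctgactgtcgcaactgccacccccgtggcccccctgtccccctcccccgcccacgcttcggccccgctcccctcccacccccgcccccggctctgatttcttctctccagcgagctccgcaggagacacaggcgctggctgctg
Wnt11 (chr7:98834862-98835161, plus strand): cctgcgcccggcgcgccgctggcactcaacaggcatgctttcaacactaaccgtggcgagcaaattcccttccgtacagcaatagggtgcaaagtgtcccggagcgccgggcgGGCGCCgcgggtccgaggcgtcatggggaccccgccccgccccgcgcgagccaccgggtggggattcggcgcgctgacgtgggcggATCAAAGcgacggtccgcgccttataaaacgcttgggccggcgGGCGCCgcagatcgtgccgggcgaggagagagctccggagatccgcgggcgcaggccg
A TCF/LEF match lay in 3 of the 10 promoters, of Wnt3, Wnt5b and Wnt11, against 16.9% of the 32851 promoters in the table. SMAD1/5 letters were found in 4 of the 10, of Wnt3a, Wnt4, Wnt9a and Wnt11, against 11.9%, and FOXH1 letters in 0 of the 10, against 3.60%. The Wnt6 window held none of the 3 motifs, nor did the second promoter listed for Wnt11, which had 59.3% G and C and is not shown. The windows shown were rich in G and C, with 65.7% for Wnt3, 76.7% for Wnt6 and 71.3% for Wnt11, against a median of 52.7% over all promoters, and GGCGCC consists of these letters alone.

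Raw counts on genes summed to between 15230856 and 17315442 per library. In F/A Cripto KO 3 of 18700 genes with counts had an odd count (0.016%), against 53.1% to 53.6% in the other 3 libraries, so its counts were halved for every interval and its detection limit was set at 6 counts in place of 3. Tdgf1 had 18714 counts in WT and 945 in Cripto KO serum/LIF, and 1572 in WT and 86 in Cripto KO F/A, so that its normalized value in Cripto KO was 0.0572 (0.0535 to 0.0610) and 0.0562 (0.0405 to 0.0761) of WT. Naive markers followed the labels of the cultures in both genotypes, and primed markers did so less clearly in Cripto KO. The summed level of 8 naive ESC markers was 4262.4 cpm (counts scaled to a library total of 1000000) in WT and 3868.4 in Cripto KO serum/LIF, and 67.4 and 62.8 in F/A. That of 8 primed epiblast markers was 224.9 and 291.4 cpm in serum/LIF, and 920.8 in WT but 462.4 in Cripto KO F/A. Of 7 primed markers with a ratio, 4 were at least 2-fold higher in F/A in each genotype, with 0 lower in WT and 1 in Cripto KO. Of all genes 22.1% were higher and 21.0% lower in WT, and 19.8% and 19.4% in Cripto KO. Within F/A 4 of the 7 primed markers were at least 2-fold lower in Cripto KO than in WT, against 5.39% of all genes, and 0 were higher. Ratios below are between the quantile-normalized values, with 95% Clopper-Pearson intervals from the raw counts in parentheses, and a gene counts as changed at a ratio of at least 2 in either direction. With 1 library per condition there is no replicate error and no test, and intervals and limits cover counting error only, not the spread between repeated cultures.

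The first comparison asked how the ligand genes differ between primed and naive culture in WT cells. All 9 were more abundant in F/A, each by at least 2-fold, although for Wnt3a this rests on 6 counts against 1 and its log2 ratio of 3.06 became 0.97 with 5 added to every value. Of all genes 22.1% of the 15450 with a ratio were at least 2-fold higher and 21.0% at least 2-fold lower. The median log2 ratio of the 9 was 3.45, an 11.0-fold difference, beside −0.08 over all genes. In Cripto KO cells the 9 were again all at least 2-fold higher in F/A, where 19.8% of 15444 genes were higher and 19.4% lower by that measure. Their median log2 ratio there was 5.08 (33.8-fold), with Wnt3a and Wnt8a entered at lower bounds, beside −0.07 over all genes. Wnt3, Wnt3a, Wnt4, Wnt5b and Wnt8a had under 1 cpm in both serum/LIF libraries, and Wnt3a also in WT F/A. These genes passed the authors' filter at 1 cpm through F/A, so their higher level there was largely fixed by being kept. In a culture of mixed cells, more cells that make a ligand and more RNA per cell cannot be told apart.

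**Figure D1:**
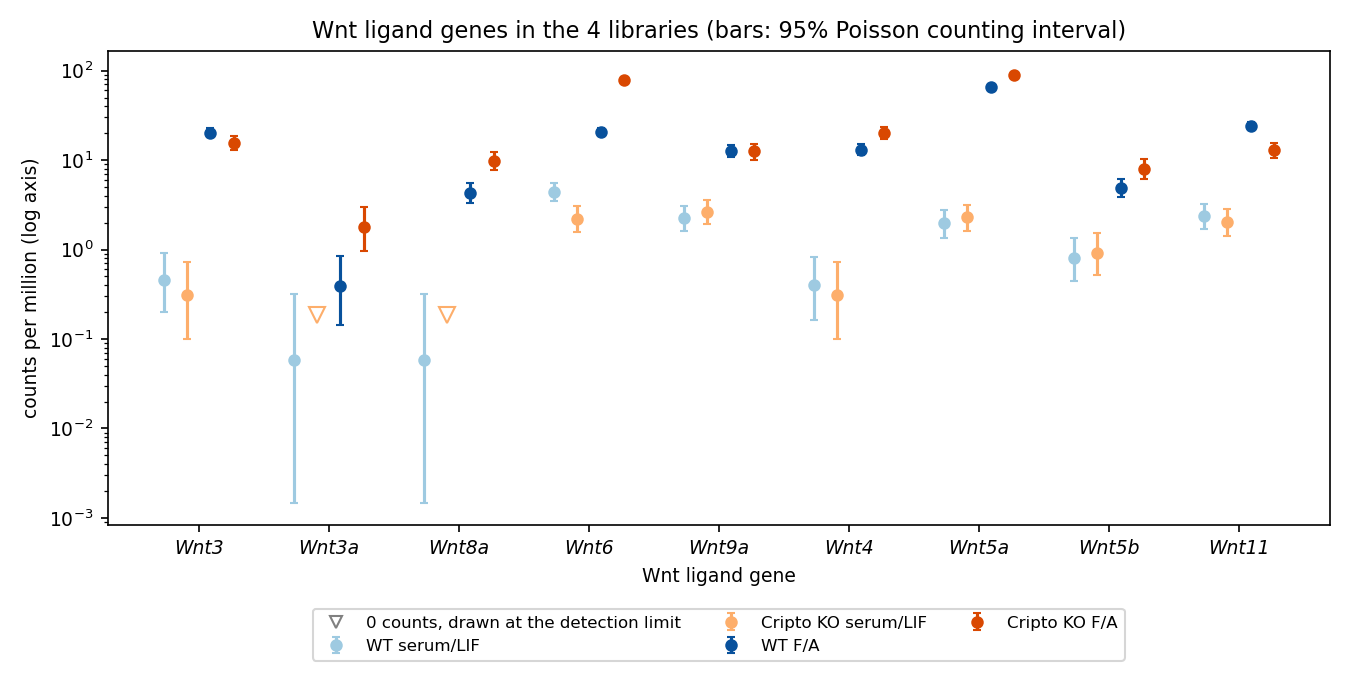
Level of each of the 9 Wnt ligand genes in cpm (log axis) in the 4 libraries, 1 point per library with its 95% Poisson interval. Both F/A points lie above both serum/LIF points for every gene, Wnt6 has the widest gap between the 2 F/A libraries among genes with at least 50 counts, and Wnt3a and Wnt8a had 0 counts in Cripto KO serum/LIF (open triangles at the detection limit).

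The ligands of the primitive streak were nearly silent in serum/LIF. Wnt3 (ENSMUSG00000000125, chromosome 11 of NCBIM37 from 103635464 to 103679271, plus strand), which the streak requires, had 8 raw counts in WT serum/LIF, 309 in WT F/A, 5 in Cripto KO serum/LIF and 244 in Cripto KO F/A. Both serum/LIF libraries were low and both F/A libraries high, with a ratio of F/A to serum/LIF of 51.1 (25.6 to 119.5) in WT and 51.3 (21.4 to 160.7) in Cripto KO. Wnt8a (ENSMUSG00000012282, chromosome 18 from 34701967 to 34707927, plus strand), another ligand of the streak, had 1, 66, 0 and 154 counts in the same order. Its F/A level was 90.7 times that of serum/LIF in WT (15.7 to 3634.7). In Cripto KO it was at least 53.0-fold higher, taking the limit of 3 counts for the library without any, with a counting interval from 42.1 upward. The first value rests on 1 count and the second on that limit, so the genotypes cannot be ordered by them. Wnt3a (ENSMUSG00000009900, chromosome 11 from 59061535 to 59104254, minus strand), which acts in the posterior embryo and tail bud, had 1, 6, 0 and 28 counts. Its ratio was 8.33 in WT with an interval of 1.01 to 383.3. In Cripto KO its level was at least 9.64-fold higher in F/A by the same limit, with a counting interval from 6.85 upward. These counts are few, and in 3 of the 4 libraries Wnt3a had 6 counts or fewer.

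The ligands known mainly for cell movement and polarity, and Wnt4, included the most abundant gene by counts. Wnt5a (ENSMUSG00000021994, chromosome 14 from 29317936 to 29340633, plus strand) had 34 counts in WT serum/LIF, 1002 in WT F/A, 37 in Cripto KO serum/LIF and 1398 in Cripto KO F/A. The change of culture was the same in both genotypes within counting error, 36.2 times (25.8 to 52.6) in WT and 37.3 times (26.8 to 53.4) in Cripto KO. Its close paralogue Wnt5b (ENSMUSG00000030170, chromosome 6 from 119382549 to 119494336, minus strand) had 14, 74, 15 and 126 counts, with ratios of 6.78 (3.80 to 13) and 8.64 (4.87 to 16.3). In both genotypes the interval of Wnt5b lay wholly below that of Wnt5a. Wnt11 (ENSMUSG00000015957, chromosome 7 from 105983622 to 106003705, plus strand) had 41, 363, 33 and 202 counts, and its ratio was 11.0 (7.92 to 15.5) in WT and 5.98 (4.0 to 9.15) in Cripto KO. Here the F/A libraries differed and the serum/LIF libraries did not beyond counting error. Wnt4 (ENSMUSG00000036856, chromosome 4 from 136833404 to 136855641, plus strand), known from kidney and ovary development, had 7, 199, 5 and 314 counts, with ratios of 37.0 (17.6 to 93.2) and 65.9 (27.6 to 205.8). Exons of Wnt5a overlap those of Gm2670 and exons of Wnt11 those of Gm8398, both on the other strand, and since the strand setting of the counting is not stated, reads of these genes and of the ligands cannot be told apart there.

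Wnt6 and Wnt9a, which were detected in all 4 libraries with at least 36 counts, had the smallest ratios in WT together with Wnt5b. Wnt6 (ENSMUSG00000033227, chromosome 1 from 74818466 to 74831893, plus strand), a ligand of epithelia and of the embryonic ectoderm, had 76 counts in WT serum/LIF, 314 in WT F/A, 36 in Cripto KO serum/LIF and 1226 in Cripto KO F/A. Among the 7 members with a count in every library it had the most unlike change in the 2 genotypes, 4.76 times (3.70 to 6.21) in WT and 33.8 times (24.1 to 48.7) in Cripto KO. Wnt9a (ENSMUSG00000000126, chromosome 11 from 59120430 to 59147054, plus strand), known from joint formation, had 39, 193, 43 and 196 counts. Its ratios were 6.05 (4.27 to 8.76) and 4.45 (3.08 to 6.53), with intervals that overlap.

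**Figure D2:**
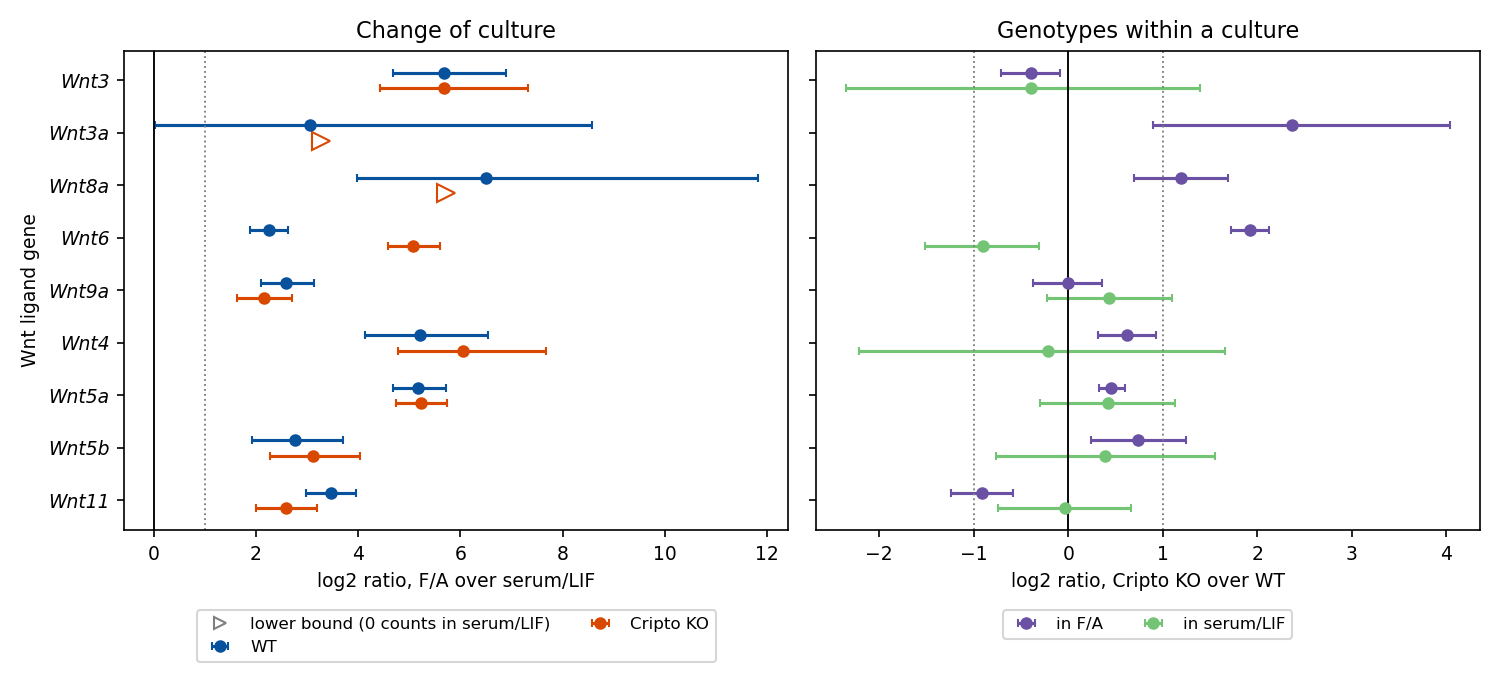
Log2 ratios of the 9 Wnt ligand genes, on the left F/A over serum/LIF in WT and in Cripto KO, on the right Cripto KO over WT in F/A and in serum/LIF. Bars are 95% counting intervals, dotted lines mark a 2-fold difference, and open triangles are lower bounds. In F/A Wnt3a, Wnt6 and Wnt8a lie past 2-fold to the right, and Wnt11 at −0.91 lies short of 2-fold to the left.

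The second question was whether the ligands differ between Cripto KO and WT cells in the same culture. In F/A, 3 of the 9 were at least 2-fold higher in Cripto KO, namely Wnt6, Wnt8a and Wnt3a, and 0 were at least 2-fold lower. Of 15001 genes with a ratio in this comparison 4.03% were at least 2-fold higher and 5.39% at least 2-fold lower. The median log2 ratio of the 9 was 0.62 beside 0.01 over all genes, with 6 of the 9 above 0 and 3 below. Wnt6 had a normalized value of 1232.25 in Cripto KO and 324 in WT, a ratio of 3.80 (3.31 to 4.37). Wnt8a had 155.25 and 68, a ratio of 2.28 (1.62 to 3.22), and with the running median over exon length taken off, its log2 ratio of 1.19 became 0.97, short of 2-fold. For Wnt3a the values were 32.25 and 6.25, and the ratio of 5.16 had an interval of 1.86 to 16.4, the widest of the 9 in this comparison. Wnt3a had 1.78 cpm in Cripto KO F/A and 0.394 in WT F/A. It passed the filter at 1 cpm through the former, so its higher level there was largely fixed by being kept.

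Smaller differences in F/A went both ways. Wnt5b was 1.67 times as high in Cripto KO (1.18 to 2.37), Wnt4 1.54 times (1.24 to 1.91) and Wnt5a 1.37 times (1.25 to 1.52). The ratio of Wnt9a was 0.997 (0.774 to 1.28). Wnt3 and Wnt11 were the members with less RNA in Cripto KO. Wnt3 had 0.762 of the WT value (0.613 to 0.943) and Wnt11 0.533 (0.424 to 0.667), the latter a 1.87-fold lower level (1.5 to 2.36). None of these 6 members passed the 2-fold threshold, although the intervals of all but Wnt9a exclude 1.

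In serum/LIF no member with a ratio was past 2-fold, out of 7 that had one, while 2.53% of 15158 genes were at least 2-fold higher and 2.53% at least 2-fold lower. Wnt3a and Wnt8a have no ratio there, since neither had more than 1 count in a serum/LIF library. Wnt6 was the member whose interval excludes 1, with a normalized value of 36.5 in Cripto KO and 68 in WT and a ratio of 0.537 (0.351 to 0.808). The other 6 had ratios between 0.760 for Wnt3 and 1.35 for Wnt9a. Their intervals all include 1, and at these depths they also include differences of over 1.5-fold.

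Wnt6 therefore stood on opposite sides of WT in the 2 cultures, lower in Cripto KO in serum/LIF and higher in F/A. The log2 difference between F/A and serum/LIF was larger in Cripto KO than in WT by 2.82 for Wnt6 (counting SE 0.31, interval 2.22 to 3.43). For Wnt11 the change was smaller in Cripto KO, with a difference of −0.88 (SE 0.37, −1.61 to −0.14). For the other 5 members with a count in every library the difference ran from −0.44 for Wnt9a to 0.83 for Wnt4, and each of these 5 intervals includes 0. The 4 libraries are shared by these differences and the ratios above, so they restate the same counts.

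Of the marker lists of other cell types, some differed between the genotypes in F/A and others differed little. The summed level of 8 trophoblast markers was 95.2 cpm in WT and 230.5 cpm in Cripto KO F/A, against 79.7 and 48.0 cpm in serum/LIF, with 6 of the 8 above the detection limit in each F/A library and 3 of the 8 in each serum/LIF library. The defining markers Tpbpa, in all 4 libraries, and Elf5, in all but WT F/A, were at 0. Cdx2 of this list, and T and Tbx6 of the next, are also in the list of target genes used further on. By gene the trophoblast list was mixed between the genotypes in F/A, with 2 of its 6 genes that have a ratio at least 2-fold higher in Cripto KO, 1 at least 2-fold lower and a median log2 ratio of 0.29, and Cdx2 went from 104 counts in WT to 674. Primitive streak and early mesoderm markers (8 of 8 found) summed to 745.1 cpm in WT and 406.8 cpm in Cripto KO F/A, against 8.20 and 4.92 cpm in serum/LIF. For 8 primitive endoderm markers the sums were 1197.8 and 1102.5 cpm in F/A, for 5 of 6 neural markers that were found 348.8 and 314.7 cpm, and for 6 fibroblast markers 72.2 and 189.6 cpm. In serum/LIF these 3 sums were 200.3, 98.4 and 115.4 cpm in WT and 151.0, 111.3 and 122.6 cpm in Cripto KO. By gene 4 of the 8 streak markers were at least 2-fold lower in Cripto KO F/A and 0 higher, and 3 of the 6 fibroblast markers were at least 2-fold higher and 0 lower. Of all genes 4.03% were higher and 5.39% lower by that measure, which also stands beside the trophoblast counts. The median log2 ratio was −0.16 for the primitive endoderm markers and 0.03 for the neural ones. With 1 F/A library per genotype, any sum and any ligand that differ lie higher in one or the other. Which of them go together therefore cannot be read from these libraries. The part of these cell types in the levels of the ligands was not tested.

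Levels of different genes can be compared only per length, here as cpm per kb of annotated exon. In WT F/A the order was Wnt6 with 9.97 (Poisson interval 8.90 to 11.1), Wnt5a with 8.41 (7.90 to 8.95), Wnt3 with 6.60 (5.88 to 7.37), Wnt11 with 6.56 (5.90 to 7.27), Wnt9a with 3.81 (3.29 to 4.38), Wnt4 with 3.12 (2.70 to 3.58), Wnt8a with 2.48 (1.92 to 3.16), Wnt5b with 1.85 (1.45 to 2.32) and Wnt3a with 0.143 (0.0524 to 0.311). Of the neighbours in this order, Wnt5a and Wnt3, Wnt11 and Wnt9a, and Wnt5b and Wnt3a had intervals that do not overlap. In Cripto KO F/A Wnt6 with 37.7 (34.7 to 40.8) stood far above Wnt5a with 11.4 (10.5 to 12.2). Wnt8a with 5.60 (4.42 to 7.0), Wnt3 with 5.04 (4.18 to 6.02) and Wnt4 with 4.76 (4.04 to 5.56) followed, all with overlapping intervals. Wnt9a with 3.74 (3.04 to 4.56), Wnt11 with 3.53 (2.88 to 4.29) and Wnt5b with 3.05 (2.34 to 3.90) overlapped likewise, and Wnt3a was last with 0.644 (0.352 to 1.08).

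In serum/LIF the order was another one. Wnt6 led the 9 with 2.12 cpm per kb in WT (1.67 to 2.66) and 1.07 in Cripto KO (0.750 to 1.48). Wnt9a followed with 0.677 and 0.794, Wnt11 with 0.652 and 0.559, and the remaining 6 lay between 0 and 0.351. Wnt7b, a ligand outside the 9, had 1.41 in WT (1.16 to 1.71) and 1.27 in Cripto KO serum/LIF (1.02 to 1.56), which was second of the 19 ligands in WT and first in Cripto KO. In both libraries its interval overlaps that of Wnt6, so the order of these genes is not settled. Exons of Wnt7b overlap those of AU022754 on the other strand, with the same limit as for Wnt5a and Wnt11.

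Summed over the 19 Wnt ligand genes, the level was 6.67 cpm per kb in WT and 5.28 in Cripto KO serum/LIF, and 52.4 in WT and 85.5 in Cripto KO F/A. The sum was 7.86 times as high in F/A in WT (7.02 to 8.81) and 16.2 times in Cripto KO (14.3 to 18.4). The 9 members made up 64.6% of it in WT serum/LIF, 61.4% in Cripto KO serum/LIF, 81.9% in WT F/A and 88.2% in Cripto KO F/A. Wnt6 alone gave 31.8%, 20.3%, 19% and 44.1% in that order, and Wnt5a 3.76%, 5.51%, 16% and 13.3%. In F/A the sum in Cripto KO was 1.63 times that in WT (1.53 to 1.73), and without Wnt6 it was 1.13 times (1.05 to 1.21). Counted without division by length, the first of these 2 ratios was 1.42.

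**Figure D3:**
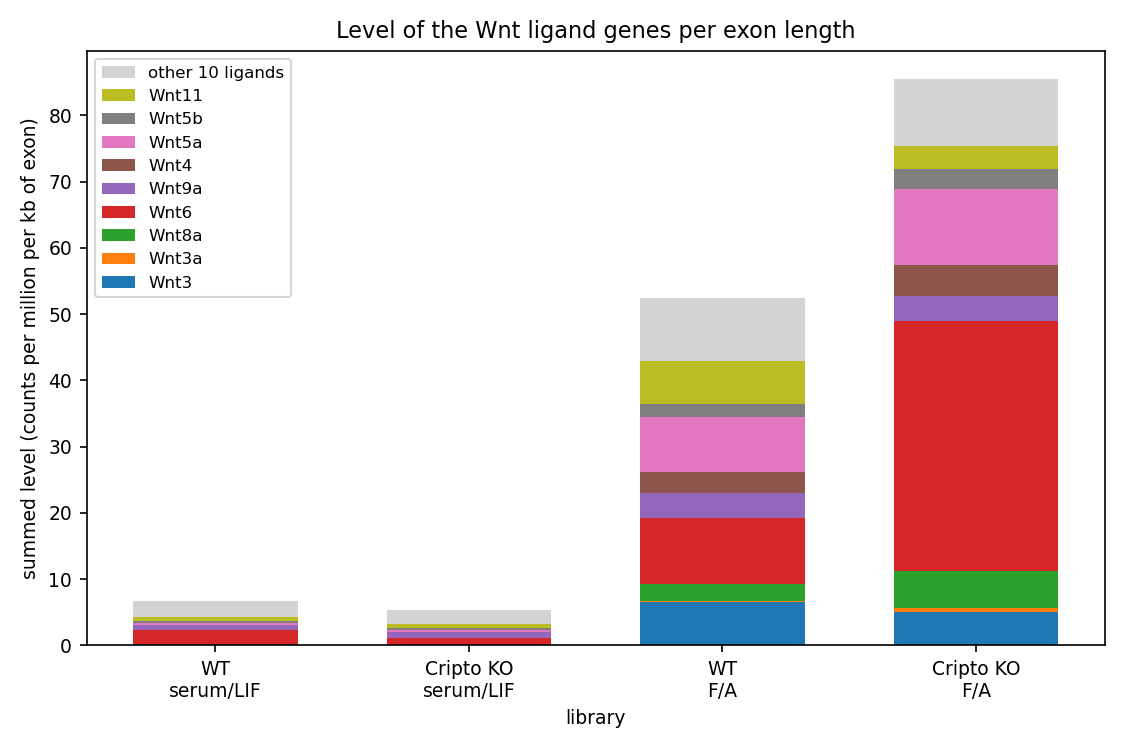
Summed level of the 19 Wnt ligand genes in each library, in cpm per kb of exon, with each of the 9 members in its own colour and the other 10 in light grey. The sum is 52.4 in WT F/A and 85.5 in Cripto KO F/A, and the Wnt6 segment of 9.97 and 37.7 makes up most of the gap.

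Of the 10 other Wnt ligand genes, 6 of the 7 kept were at least 2-fold higher in F/A in each genotype. Of all genes 22.1% were in WT and 19.8% in Cripto KO. Wnt2, Wnt7a, Wnt9b, Wnt10a and Wnt10b had under 1 cpm in both serum/LIF libraries and were kept through F/A. Their higher level in F/A was therefore largely fixed by the filter, and Wnt1, Wnt8b and Wnt16, which were not kept, had under 1 cpm in every library. Wnt10b had 2, 130, 2 and 112 counts in WT serum/LIF, WT F/A, Cripto KO serum/LIF and Cripto KO F/A, with ratios of F/A to serum/LIF of 105.0 (28.5 to 876.2) and 57.6 (15.2 to 487.5). Wnt2b had 24, 81, 16 and 56 counts, and Wnt7b, with 108, 134, 91 and 120 counts, was the ligand of those kept that stayed below 2-fold, at 1.37 (1.05 to 1.78) and 1.30 (0.924 to 1.82). Between the genotypes in F/A, 2 of the 7 were at least 2-fold higher in Cripto KO, Wnt2 and Wnt10a, against 4.03% of all genes. Both had few counts and were named here after their values were seen. Wnt2 had 3.30 cpm in Cripto KO F/A and under 1 cpm elsewhere, so it was kept through that library. Wnt10a lies 6196 bases from Wnt6 on the same strand with no annotated gene between, and had 12, 23, 5 and 50 counts, a ratio of Cripto KO to WT of 2.26 (1.23 to 4.17) in F/A. Wnt9a lies 16175 bases from Wnt3a on the opposite strand, and its ratio of 0.997 in F/A stands beside 5.16 for Wnt3a.

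The genes that make and release Wnt proteins did not move as one. Wls, the carrier that all Wnt ligands with a lipid use, had 189, 4113, 188 and 5422 counts, again in the order WT serum/LIF, WT F/A, Cripto KO serum/LIF and Cripto KO F/A, so that it was 24.1 times (20.9 to 28.1) as high in F/A in WT and 27.7 times (23.9 to 32.3) in Cripto KO. Porcn, which attaches the lipid, had 511, 203, 332 and 146 counts, with ratios of 0.429 (0.362 to 0.505) and 0.430 (0.329 to 0.555). Notum, which removes the lipid and was named after its values were seen, had 322, 29, 140 and 156 counts. Its F/A level was 0.101 (0.0669 to 0.149) of that in serum/LIF in WT and 1.07 (0.798 to 1.42) in Cripto KO, and within F/A it was 5.16 times as high in Cripto KO (3.33 to 8.21).

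The counts by list below stand beside all genes, of which 22.1% were at least 2-fold higher in F/A and 21.0% lower in WT. In Cripto KO these shares were 19.8% and 19.4%. Between the genotypes in F/A 4.03% were higher and 5.39% lower in Cripto KO. Among the 10 Frizzled receptors 6 were at least 2-fold higher in F/A in each genotype, while 1 was lower in WT and 2 were lower in Cripto KO. Fzd5 was the receptor with the widest genotype gap, with 6488 counts in WT serum/LIF, 3999 in WT F/A, 5042 in Cripto KO serum/LIF and 630 in Cripto KO F/A. Its ratio of Cripto KO to WT was 0.807 (0.778 to 0.838) in serum/LIF and 0.152 (0.135 to 0.171) in F/A. Fzd7, with 2839, 4409, 3441 and 4082 counts, was within 2-fold in all 4 comparisons. In F/A Fzd5 was the 1 Frizzled gene at least 2-fold lower in Cripto KO, and 2 had ratios of at least 2, Fzd10 with 46 counts in WT and 110 in Cripto KO (2.35, 1.56 to 3.55) and Fzd9 with 8 and 16, few counts whose ratio of 2.24 has an interval of 0.731 to 6.83. Fzd9, Fzd10 and Ror1, and the genes past 2-fold named in the next 3 paragraphs outside the rule, were named after their values were seen. All 6 co-receptors had ratios above 1 for F/A against serum/LIF, at least 2-fold in 4 in WT and in 3 in Cripto KO, and 0 of 6 were past 2-fold between the genotypes in F/A. Ror1, with 4 counts in WT and 8 in Cripto KO serum/LIF, was kept through F/A. Its higher level there was largely fixed by the filter. Ptk7, a polarity co-receptor, had a ratio of F/A to serum/LIF of 2.95 (2.83 to 3.09) in WT and 5.17 (4.93 to 5.43) in Cripto KO, and Lrp6, which passes the signal to beta-catenin, 2.48 (2.32 to 2.65) and 1.39 (1.28 to 1.51).

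R-spondins raise Wnt sensitivity by clearing the ligases Znrf3 and Rnf43 from the membrane through Lgr receptors. Of these 9 genes 4 were at least 2-fold higher and 3 lower in F/A in WT, and 3 higher and 3 lower in Cripto KO. Lgr5, with 1 count in WT and 0 in Cripto KO serum/LIF, was kept through F/A. Its higher level there was largely fixed by the filter. In F/A 8 of the 9 had ratios of Cripto KO to WT below 1, and 3 of them were at least 2-fold lower. Of these Lgr5 had 258 counts in WT and 100 in Cripto KO F/A, a ratio of 0.394 (0.285 to 0.535). Lgr6 and Rspo4 each had 6 and 2 counts, too few to tell the genotypes apart, and their ratio of 0.40 had an interval of 0.00870 to 3.30. The intervals of Rspo1, Rspo2 and Rnf43 include 1 as well. Lgr4 had 0.638 of the WT value there (0.574 to 0.708) and Znrf3 0.804 (0.702 to 0.920). Of 13 antagonists, which are secreted proteins and the membrane receptors Kremen1 and Kremen2, 10 were kept. In WT 3 of the 10 were at least 2-fold higher in F/A and 3 lower, beside 22.1% and 21.0% of all genes. In Cripto KO 4 were higher and 1 lower, beside 19.8% and 19.4%. Dkk1, Frzb and Sost, higher in both genotypes, had under 1 cpm in both serum/LIF libraries and were kept through F/A. Their higher level there was largely fixed by the filter. Sfrp1, which binds Wnt proteins, had 2035, 1904, 1903 and 1188 counts and a ratio of Cripto KO to WT of 0.612 (0.557 to 0.671) in F/A, and Kremen1, a receptor for Dkk proteins, one of 0.808 (0.702 to 0.927). Between the genotypes in F/A 3 antagonists were at least 2-fold higher in Cripto KO, Sfrp2, Sfrp5 and Sost, the last with 6 counts in WT and 20 in Cripto KO, and 0 were lower by that measure, or 1 with total-count scaling. Sost had under 1 cpm in every library but Cripto KO F/A, through which it passed the filter. Its higher level there was largely fixed by being kept. Dkk1, named after its values were seen, had 1, 1055, 3 and 940 counts.

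Inside the cell, 0 of 13 genes of the beta-catenin destruction complex and its effectors were past 2-fold between the genotypes in F/A, where 4.03% of all genes were higher and 5.39% lower by that measure. With the running median over exon length taken off, 1 of the 13 was at least 2-fold higher. Ctnnb1, the gene of beta-catenin, had a ratio of 0.977 (0.955 to 1.0) and Csnk1a1, a kinase of the complex, one of 1.01 (0.970 to 1.05). Ratios further from 1 were among the 13 too, as in Tcf7l2, which encodes a partner of beta-catenin on DNA, with 0.557 (0.478 to 0.648), Dvl3 with 0.609 (0.536 to 0.690) and Apc with 0.628 (0.588 to 0.671), all named after their values were seen. Of 12 target genes of Wnt and beta-catenin 9 were at least 2-fold higher and 1 lower in F/A in WT, and 8 higher and 1 lower in Cripto KO. T, Cdx2 and Sp8 had under 1 cpm in both serum/LIF libraries and were kept through F/A. Their higher level there was largely fixed by the filter. Axin2, a feedback target, had 145 counts in WT serum/LIF, 556 in WT F/A, 99 in Cripto KO serum/LIF and 848 in Cripto KO F/A, and was 4.27 times (3.55 to 5.17) and 8.29 times (6.64 to 10.4) as high in F/A. Lef1, both effector and target, had 209, 844, 90 and 1538 counts, and its ratio of Cripto KO to WT was 0.481 (0.372 to 0.619) in serum/LIF and 1.83 (1.66 to 2.02) in F/A. The ratio of Cripto KO to WT of Axin2 was 0.759 (0.582 to 0.987) in serum/LIF and 1.47 (1.29 to 1.67) in F/A. Both therefore lay, like Wnt6, below WT in serum/LIF and above it in F/A. The list did not share this, since of 11 targets with a ratio in serum/LIF 5 were above 1 and 6 below. By at least 2-fold 1 was higher and 2 were lower, against 2.53% of all genes each way.

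Target genes were not all higher in Cripto KO F/A. Of the 12, 3 were at least 2-fold higher, Ccnd1, Nkd1 and Cdx2, 1 was at least 2-fold lower, Tbx6, and the median log2 ratio was 0.65 beside 0.01 over all genes. T, the streak gene Brachyury, had 13, 8748, 4 and 5598 counts and a ratio of 0.598 (0.573 to 0.624) in F/A. Ccnd1, which codes for a G1 cyclin, had 2438, 1365, 1878 and 2846 counts and a ratio of 2.12 (1.97 to 2.29). Cdx2, a gene of both posterior embryo and trophoblast that was named after its values were seen, had 2, 104, 1 and 674 counts and a ratio of 6.37 (5.10 to 8.02).

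**Figure D4:**
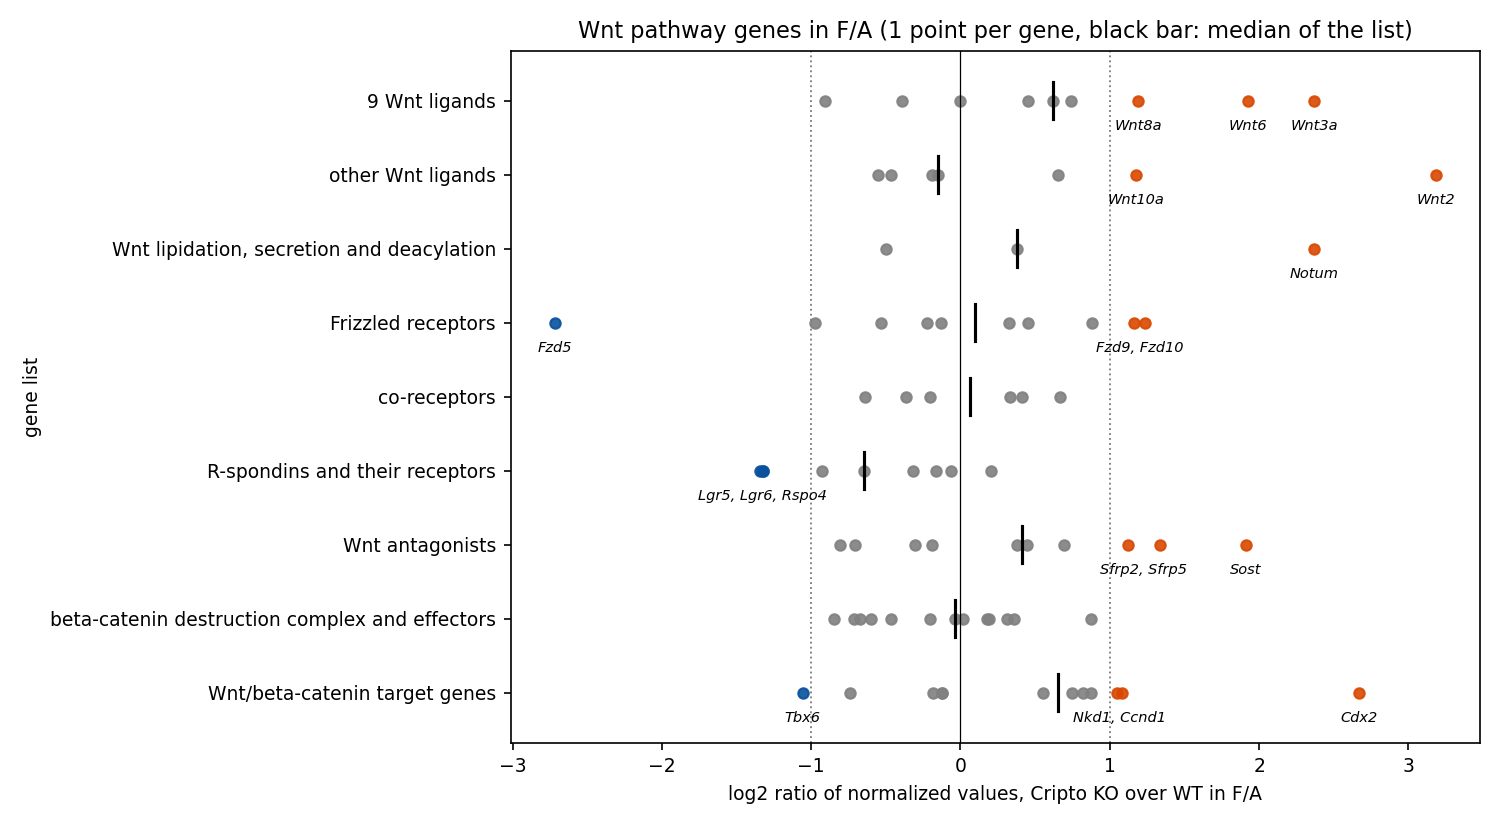
Log2 ratio of normalized values, Cripto KO over WT in F/A, for each kept gene with a ratio (1 point) in 9 lists of Wnt pathway genes, with dotted lines at 2-fold, black bars at the median of each list and names at genes past 2-fold. Of the 9 ligands 3 lie past 2-fold to the right, Fzd5 has the lowest ratio of the plotted genes at −2.72, and 0 of 13 genes of the destruction complex and effectors are past 2-fold.

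The genes nearest in pattern to each member were found over the 4 libraries as the smallest distance between log2 normalized values centred on each gene's mean, among 10396 protein-coding genes with at least 200 counts in a library. Nearest to Wnt11 was a Wnt receptor, Fzd8, at a distance of 0.140 log2 units, with 46, 412, 41 and 218 counts, followed by Dock11 (0.154) and Tgfbr3 (0.186). Wnt3 was nearest to Alox15 (0.162), Eya2 (0.215) and Gbp4 (0.252), and Wnt4 to Dchs1 (0.277), Prickle1 (0.290) and Rbm24 (0.332). Wnt5a lay close to Foxc1 (0.129), Tpm1 (0.156) and Sept4 (0.174), Wnt5b to Plekho1 (0.0697), Rgs5 (0.0763) and St3gal1 (0.106), and Wnt9a to Gm17231 (0.0259), Fam102b (0.0808) and Mid1 (0.0916). For Wnt6 and Wnt8a the distances were larger. Among the nearest to Wnt6 were Nkx1-2 (0.580) and Gpr124 (0.609), and nearest to Wnt8a were Kdr (0.788), Unc5c (0.800) and Krt18 (0.884). With 4 libraries a small distance is a description of these cultures.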

How the data were processed

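RNA of 4 cultures, 1 library per condition, was sequenced on a HiSeq 2500. The authors aligned paired-end reads to mm9 (NCBIM37) with TopHat2 2.0.13 and deposited the raw count of each of 37620 Ensembl 67 genes from htseq-count 0.6.1p1 (mode intersection-nonempty, strand option not stated). They also deposited a signal made from these counts, full quantile-normalized values (preprocessCore, RNASeqGUI 0.99.3) of the genes kept by the NOISeq 2.8.0 proportion filter at 1 cpm. Quantile normalization of the raw table gave all 61848 kept values within 0.01.

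Symbols, coordinates and exon lengths came from GENCODE M1 (Ensembl 65), which named 98.9% of the genes. Ratios were taken between normalized values, with 0 replaced by 0.5 where genes past 2-fold were counted and in medians over all genes, while medians of the members take lower bounds. Intervals are 95% Clopper-Pearson, those of levels Poisson and those of sums by the delta method. A fold against 0 counts is a bound on the detection limit in cpm, and genes at or under it in both libraries have none. No gene was tested, since each condition had 1 library. The members, the lists and the rule for named genes (all members, other Wnt ligands with at least 50 counts, Tdgf1, the 2 genes of most counts per list, Lef1, Axin2 and 3 pattern neighbours) were chosen with earlier results of these data known. 1 pattern neighbour of Wnt6 is not reported here. Alternatives were total-count scaling, factors of edgeR 4.0.16 and DESeq2 1.42.0 (R 4.3.3), halved counts, 5 added, other filters, length and fold rules. Scripts used Python 3.11.15, numpy 2.4.6, scipy 1.17.1, pandas 2.3.3 and matplotlib 3.10.9, and intervals and normalization were tested on simulated data.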

Additional observations from a re-analysis of the deposited data

How the results depend on the processing

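No paired analysis was possible because each condition has 1 library, and for the same reason no replicate could be left out. The members past 2-fold numbered 8 or 9 in F/A against serum/LIF in either genotype under each alternative run, 2 or 3 for Cripto KO against WT in F/A and 0 in serum/LIF. In WT Wnt3a was lost with 5 added to every value (log2 ratio 0.97) and left out at a mean of at least 50 raw counts. Of 269 recomputed member ratios 266 stayed within the counting interval of the reported value, and 0 of those past 2-fold changed sign. The 3 that left it were Wnt8a in WT with 5 added to every value (log2 ratio 3.67), and Wnt5a (0.72) and Wnt6 (1.69) for Cripto KO against WT in F/A with the running median over exon length taken off. Under that setting Wnt8a (0.97) no longer passed 2-fold there. With total-count, TMM or DESeq2 scaling 1 Frizzled gene in place of 2 was at least 2-fold higher in that comparison, and 4 R-spondin and receptor genes in place of 3 were at least 2-fold lower, and with total-count scaling 1 antagonist became at least 2-fold lower. With the exon-length setting the same comparison had 1 other Wnt ligand, 1 Frizzled gene, 2 antagonists, 1 effector and 4 targets at least 2-fold higher, and 2 Frizzled genes and 4 R-spondin and receptor genes lower.

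The summed level of the 19 ligands, which is in another unit when not divided by length, was then 22.1 cpm in WT serum/LIF, 196.0 in WT F/A, 18.8 in Cripto KO serum/LIF and 277.5 in Cripto KO F/A, and its ratios, also computed after the data were seen, were 8.88 for F/A against serum/LIF in WT and 1.42 for Cripto KO against WT in F/A. Dividing by the longest coding transcript was likewise tried afterwards, and the sum in WT F/A was 54.7. In F/A Cripto KO the even counts limit what can be read from genes with few counts, and Wnt3a and Wnt8a rest on 1 count or fewer in serum/LIF.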
